A study of Arabidopsis thaliana with 6 samples.

Results

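AT5G55450 and AT5G48490 are Arabidopsis thaliana genes for lipid transfer proteins whose transcript levels were higher in the brassinosteroid mutant bzr1-1D than in the mutant det2 on every array. They are 2 of the 13286 genes with a named single-gene probe set, among 22746 probe sets in all that are not controls, and each was measured by 1 probe set, 248062_at for AT5G55450 and 248683_at for AT5G48490. Both were picked by name because of their difference between the mutants in these same arrays, so that difference is described below and not tested.

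The arrays came from whole seedlings of both mutants, which the labels place in Columbia-0. In bzr1-1D a dominant allele keeps the transcription factor BZR1 active, and det2 lacks a steroid reductase needed to make brassinosteroids. Seedlings had grown for 5 days in shaken liquid culture at 22 °C under constant light, with 300 ml of medium and 1.5% sucrose. They were then mock-treated with 15 µl of 80% ethanol for 3 hours before harvest. There were 3 experiments, done in different weeks, and each gave 1 array of either genotype, with many seedlings of a flask pooled on it. The labels give no allele number for det2, and wild-type arrays were not analysed here, so each mutant stands only against the other. A whole seedling mixes organs, and in such RNA fewer cells of a type and less RNA per cell cannot be told apart.

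Non-specific lipid transfer proteins are small secreted plant proteins in which disulphide bridges between conserved cysteines hold a cavity that binds fatty acids and other lipids. They are known for carrying or binding lipids outside the cell, in the build-up of the cuticle and other barriers, and for parts in defence. DIR1, one of the best studied, is needed for the long-distance signal of systemic acquired resistance. Brassinosteroids are growth hormones whose signal ends in BZR1 and its relatives entering the nucleus, where they raise some genes and repress others. In the TAIR10.1 gene table both genes lie on chromosome 5, where AT5G48490 directly follows DIR1. AT5G55460, listed here with the same type of lipid transfer protein, comes soon after AT5G55450, with only the long non-coding RNA AT5G08275 between them in the order. In the table that RNA overlaps the span of AT5G55450. Its part in the signal of the probe set was not tested. DIR1 and AT5G55460 are not analysed here.

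The level of AT5G55450 in bzr1-1D was 2913, 4414 and 1586 in experiments 1 to 3, as intensities on a linear scale. In det2 the same probe set read 867, 926.5 and 684 in experiments 1 to 3. Every bzr1-1D array was thus brighter than every det2 array, and the genotypes did not overlap. The bzr1-1D mean was 2971 ± 1414 (SD, n = 3), against 826 ± 126 (SD, n = 3) for det2. Within an experiment the level in bzr1-1D was 3.36, 4.76 and 2.32 times that in det2. On a log2 scale, after adding 50 to each intensity, the fitted difference (bzr1-1D less det2) was 1.68 ± 0.23 (SE). Every SE given here is limma's moderated one, which draws a gene's spread towards that of all probe sets. The SD of the 3 differences of AT5G55450 by experiment was 0.52.

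For AT5G48490 the bzr1-1D intensities of experiments 1 to 3 were 2051, 870.9 and 1610. Its det2 arrays were close to each other, at 508, 510.1 and 603. Here too the genotypes did not overlap, but the bzr1-1D array of experiment 2 stood nearest to det2. The means were 1511 ± 596 (SD, n = 3) and 540.5 ± 54.4 (SD, n = 3), and the ratios within an experiment were 4.04, 1.71 and 2.67. The fitted log2 difference was 1.33 ± 0.26 (SE), and the SD of the 3 differences by experiment was 0.60. Of all probe sets, 3.74% were higher in bzr1-1D without overlap, 12.4% were higher in all 3 experiments, and 0.734% had a fitted log2 difference of at least 1. Since both genes were chosen on this contrast, nothing follows from their being among them.

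**Figure D1:**
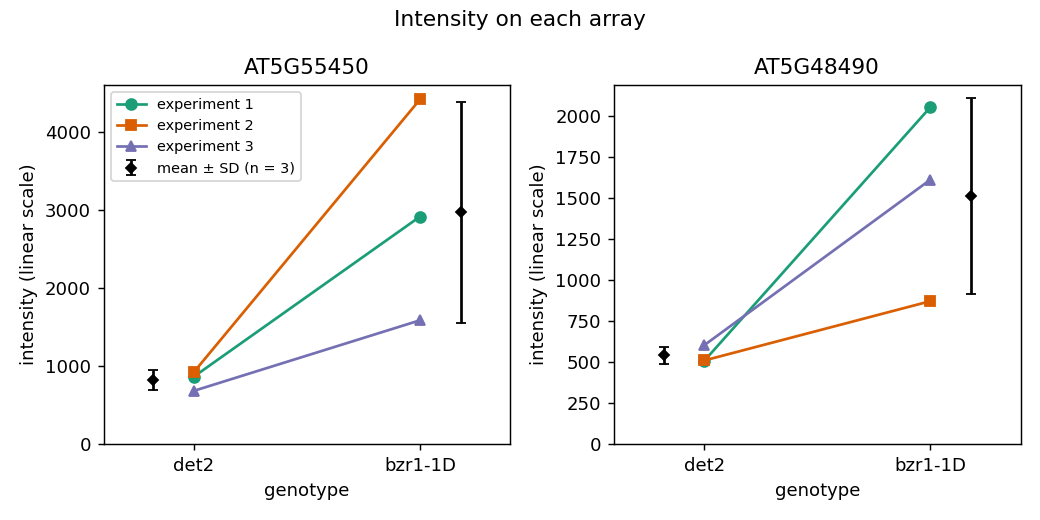
Intensity of AT5G55450 and AT5G48490 (linear axis from 0) on each of the 6 arrays, with lines joining the arrays of one experiment and black diamonds for the mean ± SD of 3 arrays. The det2 values lie close together (684 to 926.5 and 508 to 603), while the bzr1-1D values spread from 1586 to 4414 and from 870.9 to 2051.

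Both genes were even in det2 and uneven in bzr1-1D. The highest det2 array was 1.35 times the lowest for AT5G55450 and 1.19 times for AT5G48490, while in bzr1-1D these ratios were 2.78 and 2.36. With 50 added to each intensity, the log2 range over the 3 bzr1-1D arrays was 1.45 for AT5G55450 and 1.19 for AT5G48490, against a median of 0.46 over the 15501 probe sets with a mean intensity of at least 100. Of those probe sets, 94.6% had a narrower range in bzr1-1D than AT5G55450 and 91.7% a narrower one than AT5G48490. In det2 the ranges were 0.41 and 0.23, and the median was 0.43. The bzr1-1D values also entered the choice of both genes, so the shares of narrower probe sets are a description only. With 3 arrays a genotype, whether the spread itself differed between genotypes was not tested.

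The experiments did not order the genes alike. AT5G55450 had its highest level in experiment 2 and its lowest in experiment 3 in both genotypes. AT5G48490 had its lowest bzr1-1D level in experiment 2, where AT5G55450 was highest, and its highest det2 level in experiment 3. The log2 difference between genotypes of AT5G55450 was 1.69, 2.19 and 1.16 in experiments 1 to 3. For AT5G48490 these differences were 1.91, 0.72 and 1.35. The difference of AT5G55450 exceeded that of AT5G48490 by 1.48 in experiment 2 and was smaller, by -0.22 and -0.19, in experiments 1 and 3. Over the 3 experiments this gap averaged 0.35 ± 0.97 (SD, n = 3), well inside its own spread.

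How far a difference reaches depends on the experiment, because differences over all probe sets were least spread in experiment 1 (SD 0.35 on the log2 scale) and most in experiment 2 (SD 0.592), with 0.469 in experiment 3. In rank from the highest, out of 22746 differences, AT5G55450 was number 12, 163 and 307 in experiments 1 to 3. AT5G48490 was number 4, 1577 and 192. So the difference of 2.19 in experiment 2, the highest of AT5G55450, stood less far out among all probe sets than its 1.69 in experiment 1. Over the fit of all experiments AT5G55450 was number 21 and AT5G48490 number 64. Only 9 probe sets, or 0.0396%, had a log2 difference of at least 1 in each of the 3 experiments, and AT5G55450 was one of them. Both genes were chosen on this contrast, so nothing follows from these ranks or from this count.

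**Figure D2:**
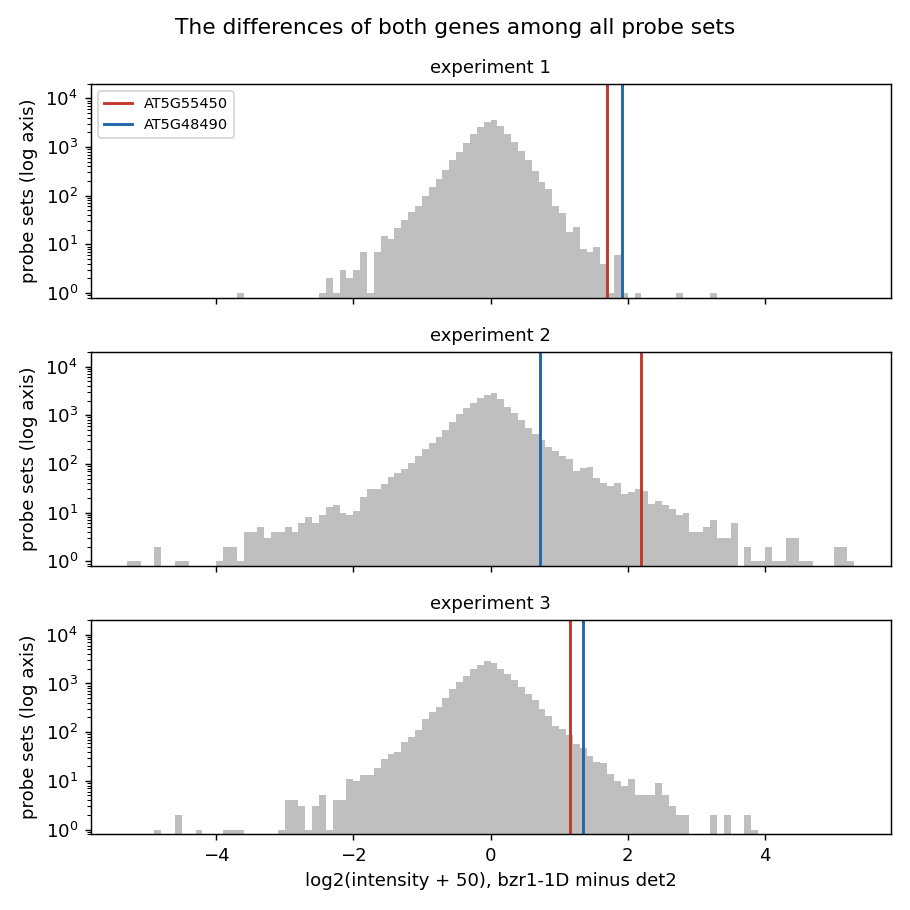
Number of probe sets (log axis) by log2 difference, bzr1-1D minus det2, in each experiment, with lines at AT5G55450 and AT5G48490. The grey distribution is narrowest in experiment 1 (SD 0.35) and widest in experiment 2 (SD 0.592), where AT5G48490, at 0.72, lies closest to the bulk.

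The level of a gene across the weeks of the experiments is a measure that the choice of the genes did not use. It was tested with limma's F-test of experiment in the same fit. The residual spread in that test comes from the genotype differences by experiment, so the test is not wholly apart from the choice. For AT5G55450 the adjusted p was 0.461 (limma, Benjamini-Hochberg over all 22746 probe sets; unadjusted p = 0.0581), and for AT5G48490 it was 0.598 (limma; unadjusted p = 0.215). Neither passed. Across all probe sets 0 (0%) passed an adjusted p of 0.05 for experiment, the smallest adjusted p was 0.152 (limma), and 11.1% had an unadjusted p under 0.05. For the genotype contrast, 0 of 22746 (0%) passed an adjusted p of 0.05 by limma, and an unadjusted p under 0.05 was found for 6.84%, namely 2.74% that were higher in bzr1-1D and 4.1% that were lower. No gene that follows is therefore called, and values are given as measured.

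Median intensity and the share of dim probe sets were much alike on the arrays, which had all been scaled to a target of 500. Median intensity was between 213 and 221 on the 6 arrays, and between 19.6% and 21.5% of probe sets read below 50. There were 4 pairs of 3′ and 5′ control probe sets, whose ratio reflects how complete the labelled RNA is. Only 1 pair, for actin, did not overlap between genotypes, with 1.22 to 1.25 in bzr1-1D against 1.27 to 1.38 for det2. The other actin pair reached 8.18 on the bzr1-1D array of experiment 3, and was between 3.14 and 5.46 on all others. Among the bzr1-1D arrays, AT5G55450 was lowest on that array, at 1586, but AT5G48490 was lowest on that of experiment 2. A pair for the control gene GAPDH was higher in experiment 1 (0.76 and 0.80) than in experiments 2 and 3 (0.46 to 0.50). The other GAPDH pair stayed between 0.99 and 1.16. Only 3 of 24 tissue marker genes had a named probe set, and none of the 3 was at 0 on any array. The root hair expansins EXPA7 and EXPA18, which loosen cell walls in growing root hairs, summed to 131 to 333 in bzr1-1D and 420 to 549 in det2, and both were lower in bzr1-1D in all 3 experiments, as were 15.5% of all probe sets. Without experiment 2 the log2 difference went from -0.82 to -0.37 for EXPA7 and from -0.57 to -0.20 for EXPA18, which in experiment 3 read 196 in bzr1-1D and 201 in det2. PAP85, a seed storage protein, read 43.1 to 78.7 in bzr1-1D and 57.3 to 127.5 in det2. The part of organ make-up or RNA quality in the levels of the lipid transfer genes was not tested, and markers of epidermis, endodermis, phloem, xylem and leaf tissue are not analysed here.

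Of the wider family of lipid transfer proteins, 79 genes were listed by type from general knowledge of the family, and 37 had a named probe set, AT5G55450 and AT5G48490 included. The other 35 were mixed. They comprised 24 higher and 11 lower in bzr1-1D, with a median log2 difference of 0.12, beside 47.6% of all probe sets above 0 and a median of -0.01. Without experiment 2, 17 of the 35 were lower and the median was 0.01. None passed an adjusted p of 0.05 over all probe sets (limma). An unadjusted p under 0.05 (limma) was found for 4, of which 1 was higher and 3 lower, beside 6.84% of all probe sets. Genotypes did not overlap for 1 higher and 1 lower gene, where 3.74% of all probe sets were higher and 5.58% lower without overlap. The log2 differences of the 35 ran from -1.48 to 0.59, so AT5G55450 and AT5G48490, chosen for their difference, ranked 1 and 2 of the 37. With no offset the dim AT1G73560 was at 1.63, above the 1.4 of AT5G48490, which then ranked 3, as it also did without experiment 1, where AT4G22470 was at 1.25 and AT5G48490 at 1.03. By single experiment AT5G55450 ranked 2, 1 and 2, and AT5G48490 ranked 1, 8 and 1 of the 37, in experiments 1 to 3. In experiment 2 the highest of the other 35, AT4G12500, had a log2 difference of 2.16, close to the 2.19 of AT5G55450, whereas the highest of them was 0.58 in experiment 1 and 0.95 in experiment 3. A mean of at least 100 in either genotype was reached by 21 of the 35, and the other 14 were too dim for a small log2 difference to say much.

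**Figure D3:**
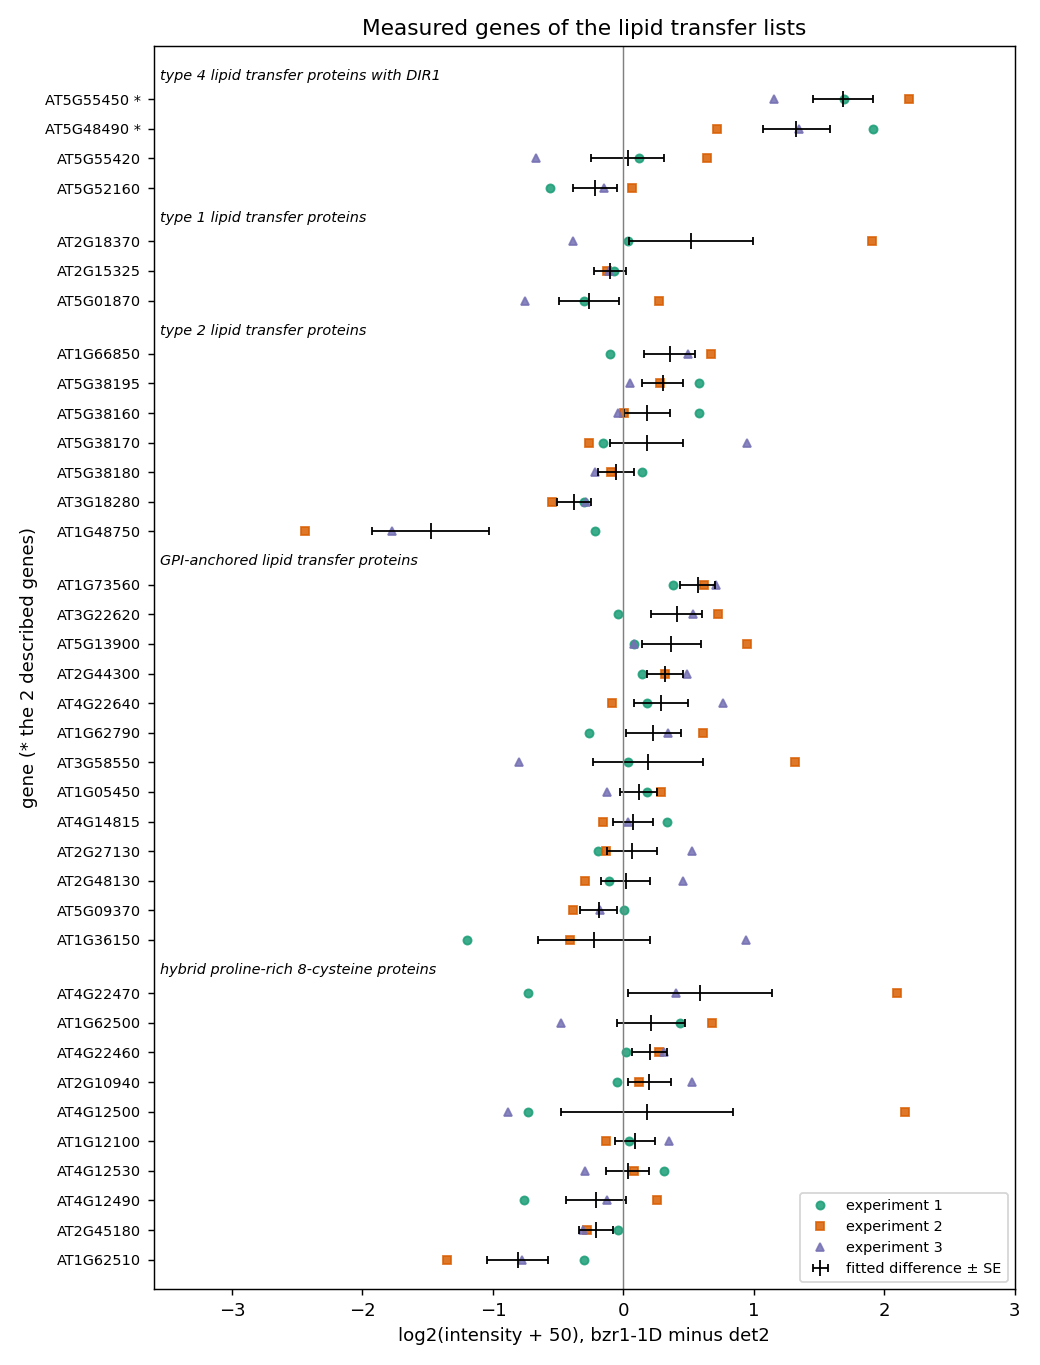
Log2 difference, bzr1-1D minus det2, of the 37 measured genes of the lipid transfer lists, by experiment (coloured symbols) and as fitted with its SE (black). The starred genes sit at 1.68 and 1.33, and the 35 others lie between -1.48 and 0.59 with the offset of 50 that is plotted.

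Closest to the described genes by type are those listed with DIR1 as type 4 lipid transfer proteins, of which AT5G52160 and the transcribed pseudogene AT5G55420 were also measured. Both were dim. AT5G52160 stayed between 12.4 and 16 in bzr1-1D and between 13.1 and 42.3 in det2, so the genotypes overlapped. AT5G55420, which lies 3 genes before AT5G55450, read 73.7, 86.5 and 25.9 in bzr1-1D, against 63.6, 37.4 and 70.7 for det2. Its log2 difference was 0.03 ± 0.28 (SE), which is indistinguishable from 0, and it turned to -0.01 with no offset.

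The classical type 1 lipid transfer proteins, the abundant form in plant epidermis, had 3 measured genes. AT5G01870 averaged 1490 ± 430 (SD, n = 3) in bzr1-1D against 1798 ± 527 (SD, n = 3) for det2, and its log2 difference of -0.26 was -0.02 without experiment 3. AT2G18370 read 262, 1335 and 480.1 in bzr1-1D, against 255, 320.4 and 642 for det2, with the widest gap in experiment 2. Its log2 difference was 0.52 ± 0.48 (SE), and -0.18 without experiment 2. The dim AT2G15325 was at 29.8 ± 23.2 (SD, n = 3) and 35.6 ± 23.6 (SD, n = 3).

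Among 7 measured type 2 genes, which encode a smaller form of the protein, 4 were higher and 3 lower in bzr1-1D. Without experiment 1 these counts were 3 and 4. AT1G48750 had the lowest difference of the family. It read 1072, 808 and 1531 in bzr1-1D, against 1256, 4603 and 5362 for det2, so the genotypes were close in experiment 1 and far apart in experiments 2 and 3. Its log2 difference was -1.48 ± 0.45 (SE; limma, unadjusted p = 0.0237, adjusted p = 0.70), and -0.997 without experiment 2. AT3G18280 was steadier. It averaged 1632 ± 34.7 (SD, n = 3) in bzr1-1D against 2146 ± 245 (SD, n = 3) for det2, with no overlap and a log2 difference of -0.38 ± 0.13 (SE; limma, unadjusted p = 0.0384, adjusted p = 0.712). The other 5, AT1G66850, AT5G38160, AT5G38170, AT5G38180 and AT5G38195, had log2 differences from -0.06 to 0.36, and 4 of the 7 genes had a mean below 100 in both genotypes.

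Lipid transfer proteins held at the cell surface by a GPI anchor had 13 measured genes, none of which passed the test. Of these, 11 were higher and 2 lower in bzr1-1D, beside 47.6% of all probe sets above 0. Without experiment 3 the counts were 9 and 4. A mean below 100 in both genotypes was found for 6 of the 13, among them both of the lower genes. AT1G73560 was dim, averaging 50.1 ± 23.7 (SD, n = 3) in bzr1-1D against 16.7 ± 9.61 (SD, n = 3) for det2, and its genotypes did not overlap (limma, unadjusted p = 0.0101, adjusted p = 0.70). Its log2 difference of 0.57 is compressed by the offset of 50, rising to 0.995 at an offset of 16 and to 1.63 when none was added. AT3G22620 was at 1134 ± 484 (SD, n = 3) and 803 ± 157 (SD, n = 3), with its highest array in bzr1-1D of experiment 2. Its log2 difference of 0.41 was 0.25 without experiment 2. For AT5G13900 the log2 difference was 0.37 ± 0.22 (SE), but 0.08 without experiment 2, and for AT2G44300 0.32 ± 0.14 (SE).

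The hybrid proline-rich proteins, which join a proline-rich stretch to a lipid transfer domain with 8 cysteines, had 10 measured genes, with 7 higher and 3 lower in bzr1-1D. Without experiment 2 this turned to 4 higher and 6 lower, and the median log2 difference went from 0.13 to -0.09. AT1G62510 read 326, 95.4 and 157 in bzr1-1D, against 412, 320.4 and 306 for det2, lower in each experiment (log2 difference -0.81 ± 0.23 SE; limma, unadjusted p = 0.0197, adjusted p = 0.70). AT4G22470 was lower in bzr1-1D in experiment 1 and far higher in experiment 2, with 418, 1454 and 418 in bzr1-1D, against 726, 301 and 304 for det2. Its log2 difference of 0.59 ± 0.55 (SE) was -0.16 without experiment 2. AT1G62500 had 0.21 ± 0.26 (SE), and -0.02 without experiment 2, and AT2G45180 -0.21 ± 0.13 (SE).

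Genes of the processes that lipid transfer proteins are known for were hardly measured under a usable name. Of 16 genes listed around DIR1 and systemic resistance only AT5G52810 had a named probe set. It read 613, 831.3 and 260.7 in bzr1-1D, against 404, 407.5 and 369.6 for det2, so experiment 3 ran the other way and the genotypes overlapped. Its log2 difference was 0.35 ± 0.29 (SE), and 0.056 without experiment 2. Of 27 cutin and wax genes only WSD1, a wax ester synthase, had one. It was dim on every array, at 27.2 on the highest. None of the 9 suberin genes had a named probe set.

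Neighbouring genes differed in either direction. For each gene the 5 nearest measured genes on either side were taken, and either set of 10 had 5 genes with a higher and 5 with a lower level in bzr1-1D. Without experiment 1 the set around AT5G55450 had 2 higher and 8 lower, and without experiment 2 that around AT5G48490 had 3 and 7. Their median log2 difference was 0.01 around AT5G55450 and -0.02 around AT5G48490, with ranges from -0.18 to 0.78 and from -0.34 to 0.50. AT5G48480 and AT5G48500, on either side of AT5G48490 and DIR1, had 0.04 ± 0.13 (SE) and 0.10 ± 0.15 (SE). The highest of the 20 was AT5G55570, at 181.9, 67.9 and 64.6 in bzr1-1D, against 51.3, 33.2 and 23.3 for det2, with a log2 difference of 0.78 ± 0.18 (SE; limma, unadjusted p = 0.00937, adjusted p = 0.70), 19 genes away from AT5G55450. In bzr1-1D it was 3.55, 2.05 and 2.77 times its det2 level. Its genotypes did not overlap, where 3.74% of all probe sets were higher in bzr1-1D without overlap. It did not pass either. Its mean was 104.8 in bzr1-1D but 35.9 in det2, and its log2 difference depended on the offset. It was 1.12 at an offset of 16 and 1.44 with none, where AT5G48490 was at 1.4.

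**Figure D4:**
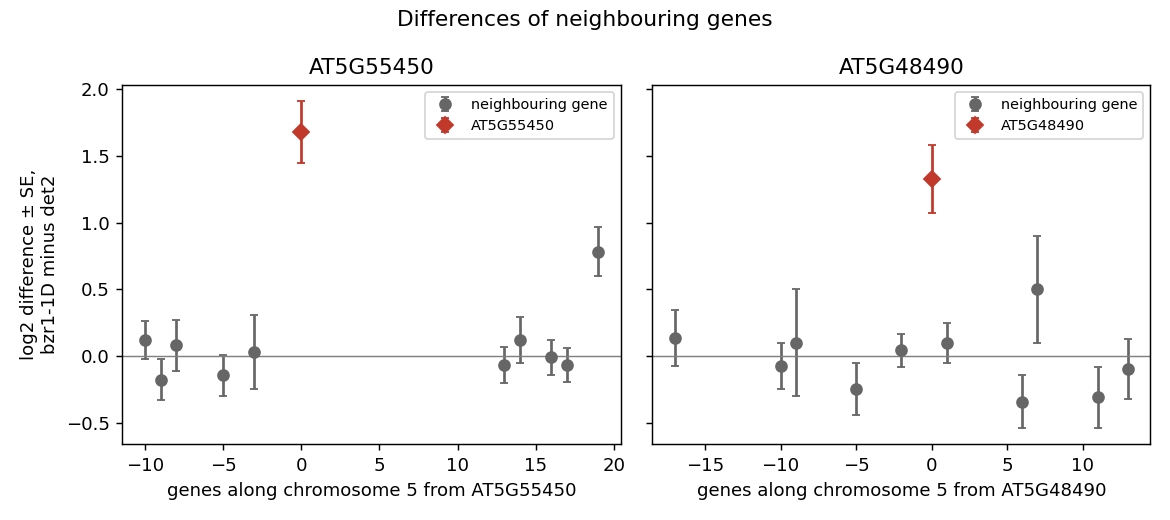
Log2 difference ± SE, bzr1-1D minus det2, of AT5G55450 and AT5G48490 (red) and of the 5 nearest measured genes on either side (grey), by number of genes along chromosome 5. The grey points lie between -0.34 and 0.78, and the red ones are at 1.68 and 1.33, with the offset of 50 that is plotted.

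The genes whose levels ran closest to each of the lipid transfer genes were taken by Pearson correlation of log2 of intensity plus 50 over the 6 arrays, among genes with a mean intensity of at least 100. All 6 arrays share the genotype difference on which both genes were chosen, so a high value is a description only. AT5G55450 was followed most closely by AT1G65720 (r = 0.992), AT1G08230 (0.974), AT1G35190 (0.967), AT1G58170 (0.964) and YLMG1-2 (0.961). Their own genotype differences were smaller, from 0.22 for AT1G65720 to 0.96 for AT1G08230. AT1G08230 read 289, 458.5 and 182 in bzr1-1D, against 160, 123 and 97.9 for det2, with the same order of experiments in bzr1-1D as AT5G55450.

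AT5G48490 had another set of nearest genes. They were AT1G21350 (r = 0.964), DJ1D (0.957), AT5G64090 (0.951), the aldehyde dehydrogenase ALDH11A3 (0.950) and AT4G38225 (0.945). Apart from AT1G21350, their own genotype differences were small, from 0.19 for AT5G64090 to 0.31 for AT4G38225. AT1G21350 read 1234, 908 and 1393 in bzr1-1D, against 526, 526.5 and 607 for det2, a log2 difference of 1.01 ± 0.15 (SE), and like AT5G48490 it was lowest in experiment 2 among the bzr1-1D arrays. Between AT5G55450 and AT5G48490 themselves r was 0.64 over the 6 arrays. Ranked among 8327 genes, AT5G48490 was number 716 in likeness to AT5G55450, and AT5G55450 was number 483 in likeness to AT5G48490.

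**Figure D5:**
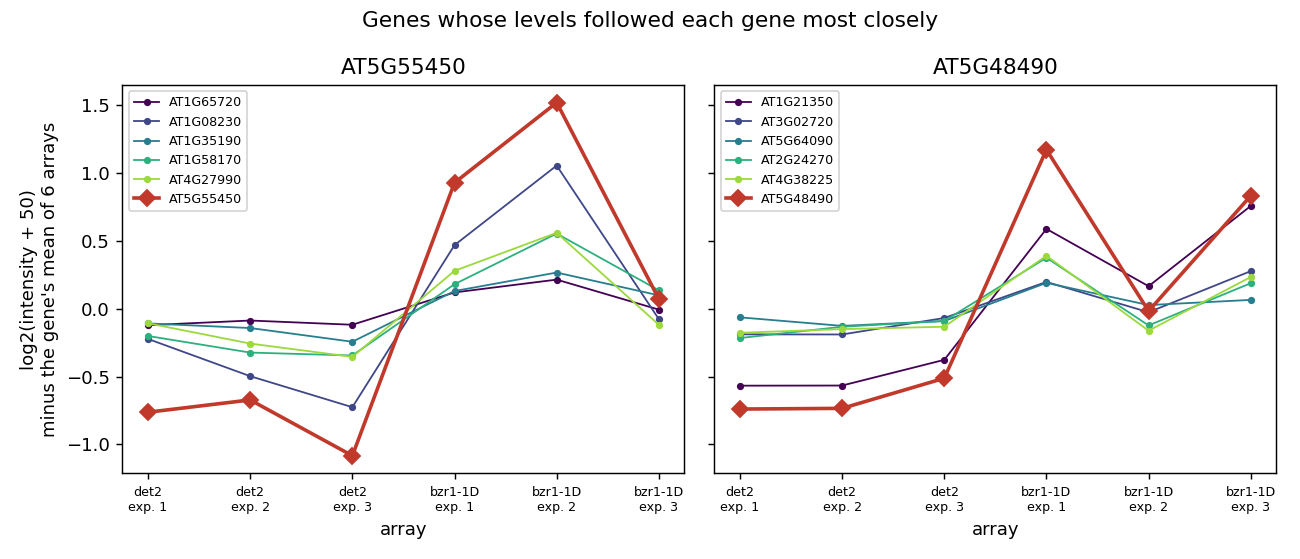
Log2 of intensity plus 50, less the mean of the gene's 6 arrays, for AT5G55450 and AT5G48490 (red) and the 5 genes closest to each by correlation. On the left the bzr1-1D array of experiment 2 is the peak, and on the right it is the lowest of the bzr1-1D arrays.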

How the data were processed

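Per the labels, total RNA was hybridised to Affymetrix ATH1 arrays and the authors had GCOS 1.1 compute intensities, scaled to a target of 500. The deposited values are such intensities on a linear scale, and the mean trimmed by 2% at either end was 500.04 on each array. The division by a percentile and by the wild type that the labels describe is not in these values. All 22746 probe sets that are not controls were tested without a filter, of 22810. A named gene had 1 gene in the platform annotation (13513 probe sets) and a match in the TAIR10.1 gene table (13436).

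Intensities were raised by 50, log2-transformed and fitted with limma 3.58.1 in R 4.3.3 (lmFit, eBayes, two-sided, Benjamini-Hochberg), with genotype and the experiment as a block, since numbered experiments, per the labels, held both genotypes side by side. The correlation of deviations of same-numbered arrays was 0.39, 0.08 and 0.37 in experiments 1 to 3, so that in experiment 2 only the labels speak for a pairing. Replicates are biological, per the labels. Computations were tested on simulated data. The number of arrays limits the precision.

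Both genes and all lists were chosen with earlier results of these data known. Named were every measured type 1, 2 and 4 gene, up to 4 of each other list with the largest absolute difference, the 5 most correlated genes, and selected neighbours. A list by gene name had 0 measured genes and promoters and proteins were not used here. Alternatives covered the block, offset, scaling, filter, eBayes settings, array weights and leaving out each experiment.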

Additional observations from a re-analysis of the deposited data

How the results depend on the processing

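Both lipid transfer genes were higher in bzr1-1D under all 13 alternatives. The log2 difference of AT5G55450 was 1.63 to 1.74 over the changes of processing and 1.42 to 1.94 when an experiment was left out, and that of AT5G48490 was 1.32 to 1.4 and 1.03 to 1.63. Neither gene passed for experiment under any alternative run for it. By limma 0 probe sets passed an adjusted p of 0.05 with the replicate block, while 1 passed with no replicate block, 1 with it as a random effect, and 0 to 0 where an experiment was dropped. Unadjusted, 1556 had p under 0.05, and 768 without experiment 3. No other call depended on the block.

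Of the 35 other family genes, 24 were higher and 11 lower, against 14 and 6 with a mean intensity of at least 100, where fewer genes are tested. Leaving out an experiment gave 18 to 22 higher and 13 to 17 lower, with 17 lower and a median log2 difference of 0.0079 without experiment 2, against 0.116 with all. Family genes at an unadjusted p under 0.05 numbered 4, and 2 without experiment 2 and 1 without experiment 3. Of the 35 other family genes, 16 changed sign under some alternative. Among the 39 named genes besides the described ones, some of them in the family, 11 did. When an experiment was left out, log2 differences ran from -0.273 to 0.383 for AT5G55420, -0.176 to 0.968 for AT2G18370, -0.0182 to 0.293 for AT5G38160, -0.209 to 0.397 for AT5G38170, -0.158 to 0.0223 for AT5G38180, -0.163 to 0.078 for WSD1 (AT5G37300), -0.344 to 0.0115 for PAP85 (AT3G22640), -0.165 to 1.25 for AT4G22470, -0.0218 to 0.554 for AT1G62500, -0.807 to 0.714 for AT4G12500 and -0.0057 to 0.233 for AT5G48500. AT5G55420 was also -0.0088 with no offset and -0.0358 with array weights, and WSD1, at -0.0246 as reported, was 0.253 with no offset, 0.00063 with quantile normalization and 0.00054 with array weights. The cause was not tested. All sign changes are of differences that did not pass.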

Other observations

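The bzr1-1D array of experiment 2 was the highest of the 6 arrays for 12 of the 35 other lipid transfer family genes, and for 18.2% of all probe sets. Among genes with a mean intensity of at least 100 it was the highest for 7 of 20, and for 19.2% of all such probe sets. This count was made after the values were seen, and genes of a family are not independent. AT5G55450 also had its highest level there, while AT5G48490 had its lowest bzr1-1D level. AT4G12500, a hybrid proline-rich gene named here because of its values, read 1307 on that array and between 221 and 462 on the other 5.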
